A study of Mus musculus and Homo sapiens
Mus musculus with 14 samples.

Results

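Müller glia were followed through 10 genes that mark them in the retina: Glul, Aqp4, Dkk3, Sox9, Sox2, Apoe, Clu, Abca8a, Car2 and Hes1. The genes were picked by name as known markers of these cells, with earlier results of these data known, and all 10 were present among the 24460 genes listed for the retinal layers and the 18415 genes listed for the amacrine cells. The data came from Light-Seq, in which RNA is reverse transcribed inside a fixed section and the cDNA of a chosen area is tagged with a DNA barcode by patterned UV light. Retinas were from wild-type CD1 IGS mice in the third postnatal week. In 4 sections cut from the same animal, the outer nuclear layer (ONL, rods and cones), the bipolar cell layer (BCL, bipolar and horizontal cells with the Müller cell bodies) and the ganglion cell layer (GCL, ganglion cells and displaced amacrine cells) each received a barcode, which gave 12 libraries. In a separate experiment on 5 sections, a few amacrine cells that stained for tyrosine hydroxylase (TH+) and neighbouring amacrine cells that did not (TH-) were barcoded, which gave 10 libraries. No group carried a transgene or a treatment. All sections of the layers share an animal, and the methods speak of the source animal of the amacrine work in the singular, so every error and p-value below covers the spread between sections.

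Müller glia are the radial glia of the retina. Their cell bodies sit among the bipolar cells, while their processes run outward between the photoreceptors and inward to end feet under the ganglion cells. They take up glutamate and turn it into glutamine, move potassium, water and bicarbonate, supply lipid-carrying proteins to neurons, and keep transcription factors of retinal progenitors such as Sox2, Sox9 and Hes1. Several of the 10 genes are not exclusive to them: retinal astrocytes in the GCL share many, microglia express Apoe, and starburst amacrine cells express Sox2. In tissue areas of this kind, fewer cells of a type and less RNA per cell cannot be told apart.

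Windows of mouse promoters from RefSeq (build GRCm38.p6) were used for 4 of the 10 genes (Glul, Sox2, Apoe and Abca8a). Those of the most abundant gene, Glul, and of the gene with the steepest fitted contrast between layers, Abca8a, are shown. They set the start regions of these 2 genes side by side. Each is the 250 bases before an annotated start, 5′ to 3′ on the gene's own strand, at chr1:153899679-153899928 on the plus strand for Glul and chr11:110095938-110096187 on the minus strand for Abca8a. Capitals mark CCAAT (the CCAAT box), ACAAT (a core of SOX sites) and TGGGAA (a core of RBPJ sites, the Notch effector), searched on both strands.
Glul: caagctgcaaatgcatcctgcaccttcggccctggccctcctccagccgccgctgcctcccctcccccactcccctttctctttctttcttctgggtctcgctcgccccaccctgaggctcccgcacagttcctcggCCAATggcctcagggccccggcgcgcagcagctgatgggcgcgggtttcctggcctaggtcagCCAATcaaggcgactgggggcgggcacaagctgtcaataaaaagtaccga
Abca8a: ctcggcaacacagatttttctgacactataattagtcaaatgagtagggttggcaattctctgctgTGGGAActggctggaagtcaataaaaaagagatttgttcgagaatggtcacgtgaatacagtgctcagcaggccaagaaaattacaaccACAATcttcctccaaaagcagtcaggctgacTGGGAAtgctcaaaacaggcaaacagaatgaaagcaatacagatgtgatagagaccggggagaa
The Glul window held CCAAT 2 times and neither of the other motifs. The Abca8a window held ACAAT 1 time, TGGGAA 2 times and no CCAAT. Among all 32851 windows of this length, 33.9% held CCAAT, 27.7% ACAAT and 21.6% TGGGAA, so each of these matches is common.

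In the GRCm39 assembly with GENCODE vM39, Glul lies on chromosome 1 (153775690 to 153785469), Dkk3 and Apoe on chromosome 7 (111712904 to 111758760 and 19430034 to 19434947), Sox2 and Car2 on chromosome 3 (34704554 to 34706610 and 14951317 to 14967568), Sox9 and Abca8a on chromosome 11 (112673009 to 112678586 and 109916460 to 109986869), Clu on chromosome 14 (66190200 to 66218999), Hes1 on chromosome 16 (29882134 to 29886643) and Aqp4 on chromosome 18. All values are unique molecular identifiers (UMIs, 1 per captured cDNA) on exons. The study's notes give featureCounts at its defaults, which ignore strand and leave out reads that overlap more than 1 annotated gene. In vM39, 59.9% of the exon bases of Sox2 are shared with Gm64654, a noncoding RNA on the opposite strand, and smaller parts of Sox9 (13.0%, with BC006965) and Apoe (12.9%, with Gm71725) are shared likewise. Reads from such bases were lost where the annotation used for counting held both genes, and could stem from either gene where it held 1, so these values are uncertain to that extent.

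The BCL libraries were the shallowest of the layers, with 193869 to 208437 UMIs against 310228 to 801105 in the ONL and 585655 to 785013 in the GCL. The amacrine libraries held 30317 to 87449 UMIs for TH+ and 134394 to 200344 for TH- cells. A count of 0 therefore allowed up to 15.5 CPM (UMIs of a gene per 1000000 UMIs of its library) in the shallowest BCL library but up to 99.0 CPM in the shallowest TH+ library, for counting error only. The label of the amacrine groups was checked by Th itself, the gene of tyrosine hydroxylase, at 475 ± 131 CPM in TH+ and 22.0 ± 15.9 CPM in TH- libraries (SD, n = 5 each). For the layers, the rod list summed to 76720 to 91622 CPM in the ONL, the bipolar list to 10132 to 11500 CPM in the BCL and the ganglion cell list to 7206 to 8018 CPM in the GCL, each above its level in the other layers.

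The 10 Müller glia genes together peaked in the BCL. Their summed level was 7500, 7767, 7206 and 8152 CPM in BCL sections 1 to 4, which is 0.721% to 0.815% of all UMIs. In the same sections it was 1618, 1224, 1135 and 1534 CPM in the ONL and 1829, 2088, 2090 and 1740 CPM in the GCL. Every BCL section was thus above every section of the other layers, and the ONL and GCL ranges did not overlap either. Relative to the BCL of the same section, the ONL held 17.97% ± 2.80 and the GCL 25.4% ± 3.30 (SD, n = 4). Glul alone supplied 58.1% to 61.8% of the members' UMIs in the BCL and 28.5% to 44.3% in the ONL. Without Glul the ratios rose to 27.6% ± 2.04 for the ONL and 30.5% ± 5.23 for the GCL.

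**Figure D1:**
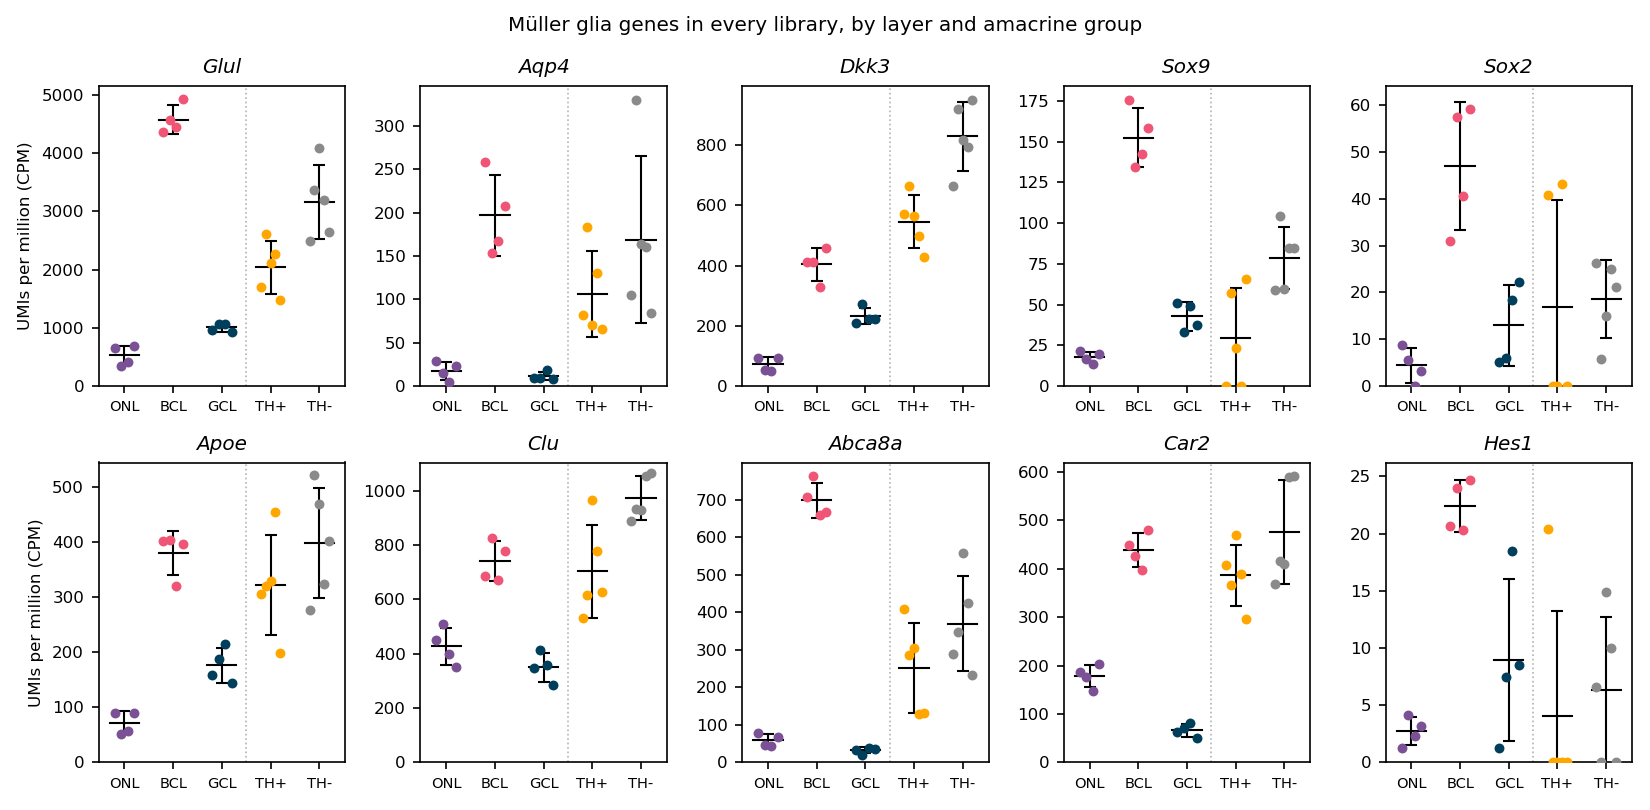
Level of each Müller glia gene in every library, in CPM (linear axes from 0, a scale of its own for each gene). Points are sections, black lines the mean and bars the SD (cut at 0); the dotted line divides the layers (n = 4) from the amacrine groups (n = 5), which were separate experiments. For all 10 genes the BCL points lie above those of the ONL and GCL.

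Layers were compared by the quasi-likelihood F-test of edgeR over all 11324 genes that passed a low-count filter, with Benjamini-Hochberg adjustment, and fold changes use TMM scaling (composition-corrected library sizes) rather than the library totals of the CPM values. Against the ONL, 10 of 10 Müller glia genes were higher in the BCL and 0 were lower, where 18.2% of all genes tested were called higher in the BCL and 18.5% higher in the ONL. Against the GCL, 9 of 10 were higher in the BCL and 0 were lower, beside 16.1% of all genes called higher in the BCL and 20.4% higher in the GCL. The median log2 fold change of the 10 genes was 2.68 against the ONL and 1.70 against the GCL, while the medians of all genes were -0.09 and -0.02. In CPM, every BCL section was above every ONL section for 10 of 10 genes (22.1% of all genes tested) and above every GCL section for 10 of 10 (18.7% of all). Hes1 passed the low-count filter only through its BCL libraries, so its place in these counts carries no weight. Without it, 9 of 9 genes were called and 9 of 9 did not overlap in each comparison, with medians of 2.73 against the ONL and 1.75 against the GCL. With library totals in place of TMM, a setting added after the data were seen, the median of all genes moved by 0.34 against the ONL and 0.17 against the GCL. The share of calls that were higher in the BCL then went from 49.5% to 70.7% against the ONL and from 44.1% to 55.7% against the GCL, and it was 59.8% against the ONL under DESeq2. No Müller glia gene changed direction under any of these scalings.

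Glul, glutamine synthetase, which converts glutamate and ammonia to glutamine, was the most abundant of the set. It stood at 4359, 4567, 4456 and 4924 CPM in the BCL, at 658, 349, 418 and 680.1 CPM in the ONL and at 953, 1067, 1068 and 929 CPM in the GCL. Its BCL sections varied by 5.39% (coefficient of variation) and its ONL sections by 31.9%. The BCL exceeded the ONL 7.01-fold (log2 fold change 2.81 ± 0.13 SE, adjusted p = 6.29e-24) and the GCL 4.06-fold (2.02 ± 0.13, adjusted p = 1.81e-19).

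Abca8a, an ABC transporter of the A subfamily, had the largest fitted contrast of the 10 with all sections included. Against the ONL without section 1, Sox2 exceeded it (3.53 against 3.47 on the log2 scale). Its levels were 707, 763, 661 and 667 CPM in the BCL, 77.4, 45.6, 43.4 and 67.7 CPM in the ONL and 33.1, 21.0, 38.4 and 35.9 CPM in the GCL. The 3 layers did not overlap, and the BCL was 9.33-fold above the ONL (log2 fold change 3.22 ± 0.15 SE, adjusted p = 3.67e-24) and 19.3-fold above the GCL (4.27 ± 0.16, adjusted p = 1.44e-28). Aqp4, the glial water channel, followed the same order at lower depth. It had 258, 154, 168 and 208 CPM in the BCL, 28.7, 15.2, 4.57 and 22.6 CPM in the ONL and 8.92, 8.99, 18.4 and 8.54 CPM in the GCL. BCL sections were clear of both others, whereas the ONL and GCL overlapped, and those 2 layers rested on 43 and 30 UMIs in all. The BCL was 8.15-fold above the ONL and 15.3-fold above the GCL (log2 fold changes 3.03 ± 0.26 and 3.93 ± 0.28 SE). Car2, carbonic anhydrase 2, which interconverts carbon dioxide and bicarbonate, was at 449, 427, 396 and 479.5 CPM in the BCL, 187, 177, 148 and 203 CPM in the ONL and 62.4, 71.9, 81.5 and 49.5 CPM in the GCL. Its BCL level was 1.95-fold above the ONL (adjusted p = 2.36e-08) but 5.84-fold above the GCL (adjusted p = 1.14e-20), so that Car2 kept 40.7% ± 2.24 of its BCL level in the ONL (SD, n = 4).

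The secreted proteins Dkk3, Apoe and Clu had smaller folds against the GCL than Abca8a, Aqp4 and Car2. Dkk3, a glycoprotein of the Dickkopf family, had 413, 413, 330.3 and 459.8 CPM in the BCL, 93.6, 52.6, 50.2 and 93.5 CPM in the ONL and 210.2, 271, 223 and 222 CPM in the GCL. The groups were apart, with the GCL much nearer to the BCL (1.55-fold, log2 fold change 0.64 ± 0.14 SE, adjusted p = 0.000158) than the ONL was (4.43-fold, 2.15 ± 0.17, adjusted p = 5.35e-16). Apoe, the apolipoprotein that carries lipid between glia and neurons, had 402, 403, 320.1 and 396 CPM in the BCL against 89.9, 51.2, 57.1 and 90.3 CPM in the ONL and 158, 187, 215 and 143 CPM in the GCL. It was 4.22-fold above the ONL and 1.92-fold above the GCL (log2 fold changes 2.08 ± 0.17 and 0.94 ± 0.14 SE). Clu, clusterin, a secreted chaperone found in lipoproteins, had the flattest profile, with 686, 825, 671 and 776 CPM in the BCL, 452, 508, 397 and 351 CPM in the ONL and 346, 414, 359.6 and 283 CPM in the GCL. Its BCL lead over the ONL was 1.35-fold (log2 fold change 0.44 ± 0.13 SE, adjusted p = 0.00481). That lead was 0.30 on the log2 scale without section 4 (adjusted p = 0.0978) and 0.78 with library totals (adjusted p = 5.77e-07). Against the GCL it was 1.88-fold (0.91 ± 0.13, adjusted p = 4.55e-08).

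The transcription factors had low counts. Sox9, an HMG-box factor of glia and progenitors, had 175, 134, 142 and 158 CPM in the BCL, 21.2, 16.6, 13.7 and 19.3 CPM in the ONL and 51.0, 33.0, 49.2 and 37.6 CPM in the GCL. The layers did not overlap, and the BCL was 6.61-fold above the ONL and 3.14-fold above the GCL (log2 fold changes 2.73 ± 0.24 and 1.65 ± 0.20 SE). Sox2, its progenitor relative, had 30.9, 57.6, 40.7 and 59.3 CPM in the BCL, 8.74, 5.53, 0 and 3.22 CPM in the ONL and 5.10, 5.99, 18.4 and 22.2 CPM in the GCL. The count of 0 in ONL section 3 allowed up to 6.85 CPM, and the GCL sections fell into a low and a high pair. Sox2 was 6.87-fold above the ONL and 3.37-fold above the GCL (log2 fold changes 2.78 ± 0.49 and 1.75 ± 0.41 SE), and the difference from the ONL was 3.53 on the log2 scale without section 1. Hes1, a basic helix-loop-helix repressor induced by Notch, had 4, 5, 4 and 5 UMIs in the BCL (20.6, 24.0, 20.3 and 24.7 CPM). It had 1, 3, 1 and 1 UMIs in the ONL (1.25, 4.15, 2.28 and 3.22 CPM) and 1, 5, 12 and 5 UMIs in the GCL (1.27, 7.49, 18.4 and 8.54 CPM). The fitted BCL level was 6.25-fold that of the ONL (log2 fold change 2.64 ± 0.66 SE, adjusted p = 0.000985), but the gene was tested only because of its BCL libraries, so this p is no support for the direction. Against the GCL its difference missed the threshold (1.19 ± 0.52, adjusted p = 0.0641), and without section 3, where the GCL had its highest value, it passed (1.86, adjusted p = 0.0163). It also passed with edgeR's default filter (adjusted p = 0.0417) and with library totals (adjusted p = 0.0332).

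**Figure D2:**
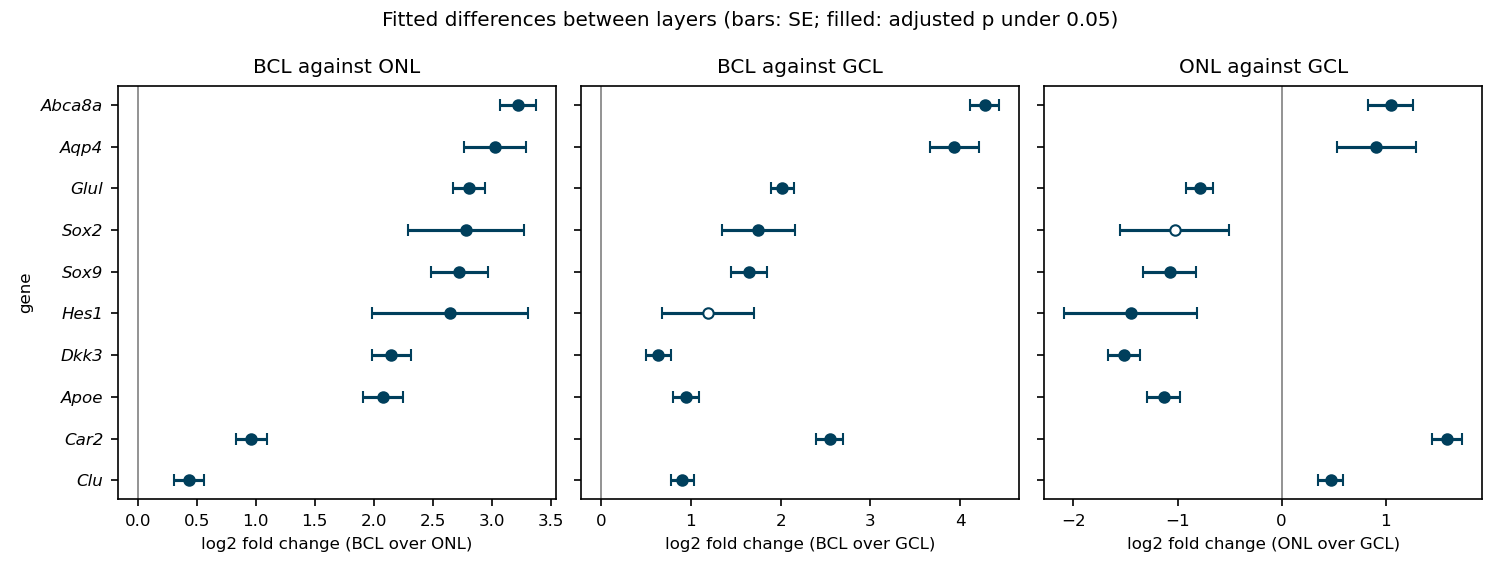
Fitted log2 fold changes of the 10 genes between layers by edgeR (x axis, positive for higher in the first-named layer; bars are SE; filled points have an adjusted p under 0.05). All points of the BCL comparisons lie right of 0, Hes1 against the GCL is open, and the ONL against the GCL divides the genes, with Car2, Abca8a, Aqp4 and Clu on the ONL side.

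The ONL and GCL, which hold the outer and inner processes of Müller cells, were compared directly. Of the 10 genes, 4 were higher in the ONL (29.3% of all genes tested were) and 5 were higher in the GCL (32.2% of all). The ONL side held Car2 (3.00-fold, log2 fold change 1.59 ± 0.15 SE), Abca8a (2.07-fold, 1.05 ± 0.22), Aqp4 (1.88-fold, 0.91 ± 0.38, adjusted p = 0.0337) and Clu (1.39-fold, 0.47 ± 0.12). On the GCL side were Dkk3 (2.85-fold), Hes1 (2.73-fold, adjusted p = 0.0453), Apoe (2.19-fold), Sox9 (2.11-fold) and Glul (1.73-fold). Sox2 did not pass (-1.03 ± 0.52, adjusted p = 0.0830). Section by section, every ONL value was above every GCL value for 2 genes, Abca8a and Car2 (22.0% of all genes tested), and every GCL value above every ONL value for 4, Glul, Dkk3, Sox9 and Apoe (32.8% of all).

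Calls of Aqp4, Hes1 and Sox2 in that comparison changed with single sections and settings. Aqp4 fell to 0.32 on the log2 scale without section 1 (adjusted p = 0.569) and rose to 1.49 without section 3, and it also lost its call without section 2 (adjusted p = 0.0675), without section 4 (adjusted p = 0.113) and under DESeq2 (adjusted p = 0.104). It did so too with no low-count filter, with mitochondrially encoded genes left out and with library totals (adjusted p = 0.0622, 0.0536 and 0.0892). Hes1 went to -0.76 without section 3 (adjusted p = 0.416), and missed the threshold without section 4 (adjusted p = 0.0786), under DESeq2 (adjusted p = 0.0989) and with the section as a replicate block (adjusted p = 0.0621). Sox2 went to -1.94 without section 1 (adjusted p = 0.00756), to -0.47 without section 3 and to -0.58 without section 4, and it passed with library totals (-1.20, adjusted p = 0.0411). For Clu the ONL lead over the GCL was 0.30 with library totals (adjusted p = 0.0213).

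The ratio of each gene within a section shows how the set divides. Abca8a and Aqp4 kept under 10% of their BCL level on average in both other layers. Abca8a kept 5.98% to 10.95% in the ONL and 4.66% ± 1.35 in the GCL, and Aqp4 8.66% ± 3.99 and 6.11% ± 3.42 (SD, n = 4). Glul (11.5% ± 3.55 in the ONL, 22.0% ± 2.28 in the GCL) and Sox9 (11.6% ± 1.30 and 28.0% ± 4.98) kept more on the inner side. Dkk3 (58.1% ± 9.90), Clu (47.7% ± 7.61) and Apoe (47.3% ± 13.9) kept the most in the GCL, and Clu also kept 58.0% ± 8.91 in the ONL. The 16 bipolar genes, summed, kept 12.6% ± 1.88 of their BCL level on the ONL side and 5.90% ± 0.932 on the GCL side. The GCL ratio of the summed Müller glia genes, 21.3% to 29.0%, lay above that of the bipolar list, 5.05% to 6.80%, in each of the 4 sections. It overlapped that of the cone list, 21.3% to 31.8%. It lay below those of the rod list, 34.4% to 43.1%, and of the second Müller glia list described further on, 41.7% to 47.2%. It also lay below that of the endothelial and pericyte list, 46.4% to 73.4%, where Kdr made up most of the BCL sum.

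**Figure D3:**
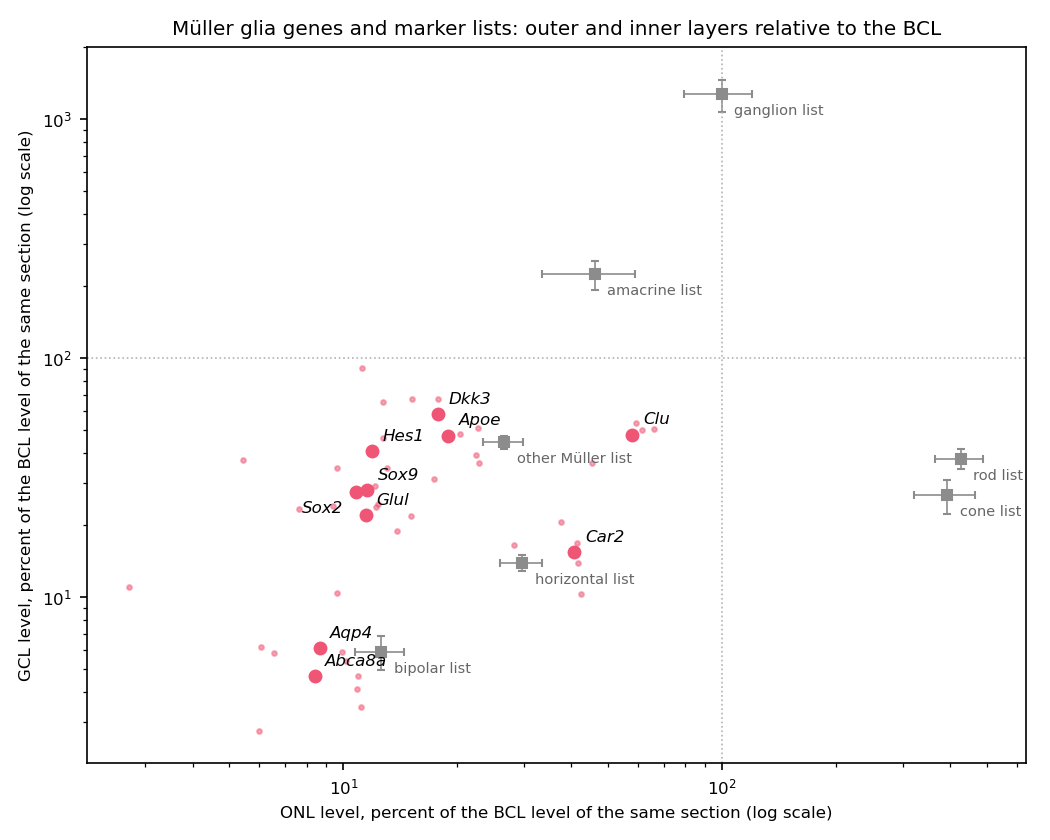
Level in the ONL (x axis) and in the GCL (y axis) as a percent of the BCL level of the same section, both on log axes. Large points are means over 4 sections and small points the sections (1 Sox2 section with 0 in the ONL is not drawn), grey squares with SD bars are summed marker lists, and dotted lines mark the BCL level. All 10 genes lie under 100% on both axes, with Abca8a and Aqp4 near the bipolar list and Dkk3, Apoe and Clu higher on the GCL axis.

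Per length of exon (CPM per kilobase, with the authors' gene lengths), the order of levels in the BCL was Glul at 1210.1 ± 65.3, Clu at 215 ± 21.4, Car2 at 181 ± 14.5, Apoe at 178 ± 18.8, Dkk3 at 120.2 ± 16.0, Abca8a at 112 ± 7.48, Sox9 at 36.9 ± 4.39, Aqp4 at 31.6 ± 7.51, Sox2 at 22.9 ± 6.65 and Hes1 lowest (SD, n = 4), at 9.98 to 12.1. Neighbours whose sections overlapped were Clu and Car2, Car2 and Apoe, Dkk3 and Abca8a, Sox9 and Aqp4, and Aqp4 and Sox2. The gap from Glul to Clu had no overlap. In the ONL, Glul (139 ± 44.3) and Clu (124 ± 19.7) overlapped, and Car2 ranked next at 73.9 ± 9.50. In the GCL, Abca8a ranked below Sox9 and Sox2, at 5.12 ± 1.23 against 10.3 ± 2.12 and 6.29 ± 4.22, and its sections overlapped those of Sox2.

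Among amacrine cells, 8 Müller glia genes could be tested and 0 of 8 passed the threshold between TH+ and TH- libraries. Of all 6021 genes tested, 0.747% were called higher in TH+ and 0.083% higher in TH- libraries. Sox2 and Hes1 were not tested, with 4 and 1 UMIs in all TH+ libraries, and Sox9 passed the low-count filter only through the TH- libraries, so it is left out of the counts that follow. The other 7 genes had negative fitted changes (lower in TH+), with a median log2 fold change of -0.49 against -0.05 for all genes. At an unadjusted p under 0.05, 3 of 7 passed (Glul, Dkk3 and Clu), beside 8.85% of all genes tested in either direction. The level was higher in TH- in each of the 5 sections for 3 of the 7 (Glul, Aqp4 and Dkk3), a pattern found in 7.24% of all genes tested.

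Glul had 1695, 2607, 2117, 2271 and 1484 CPM in the TH+ libraries of sections 1 to 5 and 2492, 3373, 4092, 3195 and 2636 CPM in the TH- libraries. TH+ was lower in every section, at 51.7% to 77.3% of TH-, although the ranges of the groups overlapped. The fitted change was -0.62 ± 0.16 SE (adjusted p = 0.0523), and it passed without section 2 (-0.71, adjusted p = 0.00122). Section 2 had the lowest rod list sum of its group in both, at 17153 CPM in TH+ and 9830 CPM in TH-. The part of this in the call was not tested. Dkk3 had 572, 663, 565, 497 and 429 CPM in TH+ and 664, 919.9, 818, 794 and 951 CPM in TH- libraries, so the highest TH+ value fell just short of the lowest TH- value. Its change was -0.57 ± 0.18 (adjusted p = 0.132). Clu had 531, 618, 965, 778 and 627 CPM in TH+ and 888, 932, 930.1, 1053 and 1064 CPM in TH- libraries, lower in TH+ in 4 of 5 sections (-0.49 ± 0.17, adjusted p = 0.256). Sox9 was at 0 in 2 of 5 TH+ libraries and at 23.5 to 66.0 CPM in the others, against 59.2 to 104 CPM in TH- libraries (-1.33 ± 0.51, adjusted p = 0.334, and -1.96 without section 2). Its 0 in TH+ section 1 allowed up to 61.3 CPM, beside 59.2 CPM in the TH- library of that section, so no direction could be read there.

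Both groups of a section share its tissue, and a fit with the section as a replicate block gave 3 calls in place of 0: Glul (-0.61, adjusted p = 4.60e-08), Dkk3 (-0.57, adjusted p = 0.00880) and Clu (-0.48, adjusted p = 0.0218). Over all genes the block raised the calls from 45 higher in TH+ and 5 higher in TH- to 96 and 52, so that the share higher in TH+ went from 90% to 64.9%. The remaining genes had fitted changes of -0.53 ± 0.35 for Aqp4, -0.49 ± 0.25 for Abca8a, -0.30 ± 0.20 for Car2 and -0.28 ± 0.22 for Apoe, none of them called with or without the block. The rod list moved the other way, with a summed level of 17153 to 43853 CPM in TH+ and 9830 to 25182 CPM in TH- libraries, all 14 genes detected in both groups and 5 of 14 tested called higher in TH+. Bipolar and amacrine lists had medians on the same side as that of the Müller glia genes. The bipolar list had a median log2 fold change of -0.46 (0 of 12 tested called; 1532 ± 468 CPM in TH+ and 2341 ± 1209 CPM in TH-), and the amacrine list of -0.42 (4662 ± 783 and 6375 ± 1272 CPM; SD, n = 5). The part of rod, bipolar and amacrine RNA in the Müller glia values was not tested.

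**Figure D4:**
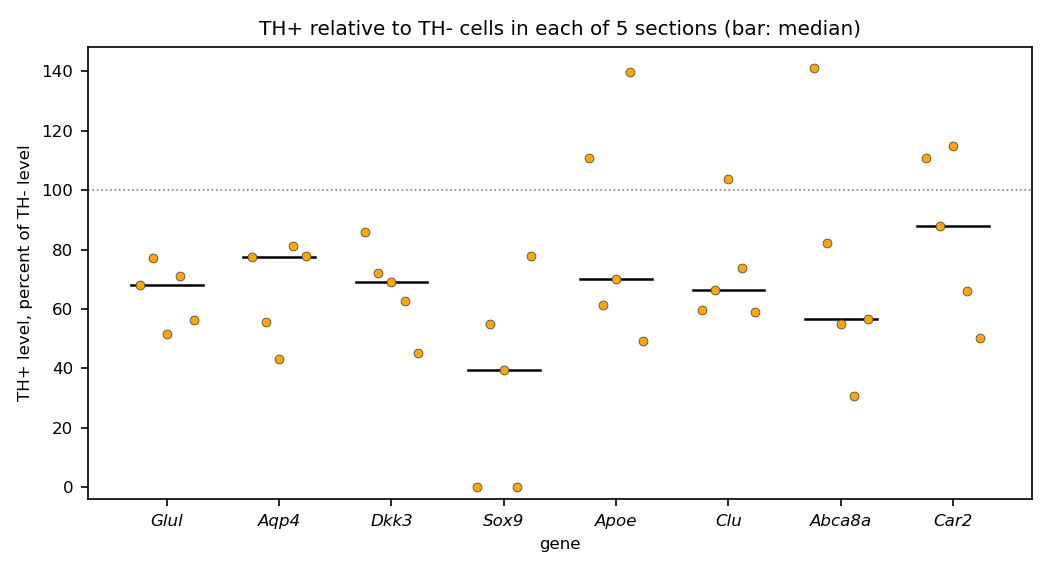
Level in TH+ as a percent of the TH- level of the same section for the 8 genes tested (points are sections 1 to 5 from left to right, bars the median, the dotted line equal levels). All 5 points lie under 100% for Glul, Aqp4, Dkk3 and Sox9 (2 of the Sox9 points are at 0 and rest on no UMI), whereas Apoe and Car2 have 2 sections above it.

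RNA of the Müller glia genes was also present in the amacrine libraries, whose barcodes were aimed at neurons. The 10 genes summed to 3298 to 5100 CPM in TH+ and 5174 to 7530 CPM in TH- libraries. Glul at 3158 ± 639.8 CPM in TH- libraries (SD, n = 5) stood between its GCL and BCL levels in the layer experiment. Dkk3 at 829.5 ± 114 CPM stood above its BCL level of 404 ± 53.8 CPM, and Clu at 973 ± 80.0 CPM above its BCL level of 739.5 ± 73.7. Abca8a at 370 ± 127 CPM stood below its BCL level of 699 ± 46.9 CPM, and Sox9 at 78.5 ± 19.2 CPM below 153 ± 18.2 CPM. The means of Aqp4, Sox2 and Hes1 were below those of the BCL as well, and Apoe and Car2 were near theirs. Layers and amacrine cells were sequenced separately on different instruments, so these values stand side by side without a test.

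A second list of 25 Müller glia genes, also drawn up with earlier results known and so no independent evidence of direction, was mostly higher in the BCL. Against the ONL, 20 of 22 tested were higher in the BCL and 2 lower, and against the GCL 17 were higher, 1 lower and 4 not called. Rlbp1, the retinaldehyde-binding protein of the visual cycle, was 5.54-fold above the ONL and 11.97-fold above the GCL (log2 fold changes 2.47 and 3.58). Slc1a3, the glial glutamate transporter, had log2 fold changes of 2.94 and 2.16, and Vim, the intermediate filament vimentin, of 2.84 and 1.90. The 2 exceptions in the ONL were Crb1, a cell polarity protein at the outer limiting membrane (-1.18, adjusted p = 2.47e-09), and Slc16a1, a lactate transporter (-1.06, adjusted p = 3.61e-08). Sparc, a matrix glycoprotein, was lower in the BCL than in the GCL (-1.38, adjusted p = 8.15e-11). Kcnj10, the inward-rectifier potassium channel of Müller glia, was not called between BCL (199 ± 61.5 CPM) and GCL (177 ± 15.3 CPM; SD, n = 4), although the BCL was 3.91-fold above the ONL. In TH+ against TH- libraries 1 of 20 tested was called, Tgfb2, a growth factor (-1.52, adjusted p = 0.0453).

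Lists of genes that share a function with the members, and that include those members, were counted in the same way, beside the shares of all genes given above for each comparison. Of 17 genes of glutamate, potassium and water handling (Glul and Aqp4 among them), 7 of 15 tested were higher in the BCL than in the ONL and 5 lower, while 10 were higher in the BCL than in the GCL and 2 lower. The glutamate transporter Slc1a2 and the water channel Aqp1 were lower in the BCL than in the ONL (-0.79 and -2.46), unlike Slc1a3 and Aqp4, but higher in the BCL than in the GCL (2.35 and 1.78), as those were. Of the 6 carbonic anhydrases tested (Car2 among them), 6 were higher in the BCL than in the ONL and 4 than in the GCL, including the membrane-bound Car14 (2.41 and 3.60). Of the 9 Sox genes tested (Sox2 and Sox9 among them), 7 were higher in the BCL than in the ONL and 5 than in the GCL. Sox8, the relative of Sox9, was 12.9-fold and 7.26-fold higher, and Sox6 7.41-fold and 2.15-fold.

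In the Notch pathway, to which Hes1 belongs, 12 of 26 genes tested were higher in the BCL than in the ONL, 2 were lower and 12 were not called. Hes1 is counted there as higher but was tested only because of its BCL libraries, so it carries no weight. Whether other listed genes passed the low-count filter in that way was not checked. Against the GCL, 7 were higher in the BCL, 3 lower and 16 not called. The receptors Notch1 and Notch2 were higher in the BCL than in both other layers (log2 fold changes against the ONL 2.35 and 1.98, against the GCL 1.34 and 1.76), as was Mfng, a glycosyltransferase that modifies them (3.13 and 3.70). Notch3, a receptor of mural cells, and Heyl were instead higher in the GCL than in the BCL (-2.77 and -2.07), and the ligand Jag1 was higher in the ONL (-2.61 for BCL against ONL). Lipid and lipoprotein transport genes (Apoe, Clu and Abca8a among them) divided 8 higher, 6 lower and 8 not called for BCL against ONL, and 11, 5 and 6 for BCL against GCL. The cholesterol transporter Abca1 was higher in the BCL than in both (1.71 against the ONL, 2.93 against the GCL), and Abca8b, the neighbour of Abca8a in the same subfamily, had 1.79 and 1.02. Among 12 Dickkopf and other Wnt antagonist genes or their receptors, only 3 could be tested, and 1 (Dkk3) was higher in the BCL than in the ONL. Against the GCL, Dkk3 and Kremen1, a Dickkopf receptor, were higher in the BCL (0.64 and 2.78) and Sfrp1, a secreted Wnt antagonist, lower (-2.42).

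Genes outside the set with the profile nearest to it were ranked by Pearson's r between their log2(CPM + 1) and the mean centred profile of the 10 genes over the 12 layer libraries, which fall into 3 layers. Among 4135 candidates the closest were Tacr3 (0.986), Col23a1 (0.983), Grik1 (0.982), Kdr (0.981), Kcnma1 (0.979), Epha7 (0.979), Prickle2 (0.978), Agap1 (0.975), Sesn3 (0.974) and Lhx2 (0.974). Lhx2, a LIM homeobox factor, was on the second Müller glia list and Grik1, a kainate receptor subunit, on the bipolar list. Kdr, a VEGF receptor, was on the endothelial and pericyte list. Most of that list went the other way against the GCL, with 5 of 9 genes tested lower in the BCL and 2 higher. Nearness in these 12 libraries thus crossed marker lists and did not assign a gene to a cell type. Each member against the mean of the other 9 gave r between 0.697 (Car2) and 0.969 (Glul).

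Markers of other cell types moved with the same contrasts. In the BCL, the bipolar list was raised for 15 of 16 genes tested against the ONL and 16 of 16 against the GCL. The horizontal cell list was raised for 7 of 8 against each, with 1 lower than in the ONL. The rod list was raised for 14 of 14 against the GCL (median log2 fold change 1.24) and lower for 14 of 14 against the ONL. The endothelial and pericyte list summed to 1176 ± 34.7 CPM in the BCL and 162 ± 58.8 CPM in the ONL. In the GCL it summed to 749 ± 156 CPM (SD, n = 4). Of 9 genes tested, 4 were higher in the BCL than in the ONL, and 2 were higher and 5 lower than in the GCL. Kdr alone had 833 CPM in the BCL, 73.4 CPM in the ONL and 87.2 CPM in the GCL. The BCL lead of the sum over the GCL rested on this gene. The starburst amacrine list, of cells that express Sox2, summed to 479 ± 44.8, 58.4 ± 23.6 and 263 ± 12.5 CPM in the same order. Of 6 genes tested, 3 were higher in the BCL than in the ONL, and 2 were higher and 3 lower than in the GCL. The 3 above the ONL were Megf10, Megf11 and Isl1, which is also on the bipolar list. The cholinergic genes Chat, Slc18a3 and Slc5a7 were not called against the ONL (adjusted p = 0.226, 0.705 and 0.603). In the GCL, the astrocyte list summed to 236 to 322 CPM, against 30.9 to 91.2 CPM in the BCL and 22.1 to 44.9 CPM in the ONL. Of 6 astrocyte genes tested, 4 were higher in the GCL than in the BCL, with Gfap, the astrocyte filament, at -3.56 for BCL against GCL, and 1 was higher in the BCL (Agt, angiotensinogen, 2.26). Against the ONL, 5 of 6 were higher in the GCL, while S100b was at 0 in the BCL and Fgfr3 at 0 in the ONL. The microglia list summed to 86.1 to 160.4 CPM in the GCL, 24.7 to 81.6 CPM in the BCL and 8.30 to 25.8 CPM in the ONL, with 3 of 6 genes tested higher in the GCL than in the BCL, 6 of 6 higher than in the ONL, and Aif1 and Fcrls at 0 in the BCL. The part of these cell types in the levels of the members was not tested.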

How the data were processed

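The authors took barcodes and UMIs from the reads with UMI-tools 1.1.1, mapped them with STAR 2.7.9a to mm39 with GENCODE vM27, and kept only uniquely mapped reads. featureCounts then placed these on exons, repeats of a UMI within a gene were merged, and libraries were separated by exact barcode. They left out 2 ribosomal RNA genes. The deposited values used here are counts of UMIs per gene, not normalized, and the gene lengths deposited with them.

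CPM are counts over the library total. Layers (12 libraries) and amacrine cells (10 libraries) were each fitted once with edgeR 4.0.16 (R 4.3.3): TMM, filterByExpr with a minimum count of 3 (applied as a CPM cut at the median library size, to be met in as many libraries as the smallest group holds) and 10 UMIs in total, quasi-likelihood F-test, Benjamini-Hochberg adjustment over all genes tested, threshold 0.05. SE is the log2 fold change over the square root of F. The procedure was tested on simulated data. Alternatives were DESeq2 1.42.0, RLE size factors, other filters, library totals, mitochondrially encoded genes left out, each section left out, and the section as a block. A library here is the UMIs of 1 barcode in 1 section. Sections pair the libraries because those of a section were barcoded in the same tissue, then collected and amplified together. Their residuals correlated at 0.0116 to 0.0493 over 12 layer pairs (0 over 0.1) and at 0.0287 to 0.257 over 5 amacrine pairs (2 over 0.1).

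Named genes are the 10 members, genes of the marker and family lists, and the 10 genes of nearest profile among those with a mean of at least 50 CPM in the BCL. Th was added as the check of a label. Members and lists were chosen with earlier results of these data known. The mixed culture and the pooled layer library were not used.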

Additional observations from a re-analysis of the deposited data

Results flagged for a closer look

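Within each group of 4 or 5 sections, the highest and the lowest CPM of every Müller glia gene, and of their sum, were compared with the others by Dixon's criterion. Of 55 groups checked, 3 had a section that stood apart, and chance alone flags about 1 group in 20. Aqp4 had 18.4 CPM (12 UMIs) in GCL section 3, against 8.54 to 8.99 CPM in the other 3. Apoe had 320.1 CPM in BCL section 3, against 396 to 403 CPM in the others. Hes1 had 20.4 CPM in TH+ section 1, which is 1 UMI, against 0 in the other 4. For Aqp4 the lead of the ONL over the GCL was 1.49 on the log2 scale without section 3, against 0.91 with it.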

How the results depend on the processing

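Across 547 alternative values, none reversed a direction. Of those for single genes, 401 stayed on their side of the threshold, 12 passed it newly and 12 no longer passed, and 11 of those 12 losses concerned the ONL against the GCL, all for Aqp4 and Hes1. Counts of members called were kept within 1.5 times between layers in every alternative. Between TH+ and TH- libraries the count higher in TH- went from 0 to 2 with no low-count filter (Glul and Dkk3), to 3 with the section as a replicate block, and to 1 with library totals (Glul, adjusted p = 0.0368). Leaving out 1 section at a time gave 0 to 1 (Glul without section 2). Among the layers the block changed 1 call, Hes1 in the ONL against the GCL, and no other. The summed level of the 10 genes was 7656 CPM in the BCL and 1937 CPM in the GCL. It was 6922 CPM in the BCL with TMM library sizes, and 8171 CPM in the BCL and 2130 CPM in the GCL with mitochondrially encoded genes left out, which shrinks the library totals. Depth limits Hes1, Sox2 and Aqp4 in the layers and Sox9, Sox2 and Hes1 in the TH+ libraries.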
